A study of Mus musculus with 40 samples.

Results

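Type I interferon stimulated genes are the genes whose transcription rises when a cell senses interferon alpha or beta. A list of 39 of them was followed in mouse regulatory T cells (Treg, CD4 T cells defined by the transcription factor Foxp3). A gene was measured where the array had a probe set annotated to it alone, and where there were several, the brightest on average in that experiment stood for the gene. This gave 37 of the 39 among 18194 genes in sorted T cells and 36 of the 39 among 17097 genes in Treg exposed to semaphorin-4a. Isg15 and Ifi44 were not measured in either experiment, and Bst2 was not measured in the second. For Isg15 the first experiment had only a probe set shared by several genes. The second had no probe set annotated to it.

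The series holds 40 arrays of RNA from C57Bl/6 mice in 2 experiments. The first has 8 arrays of cells sorted from mice labelled Foxp3GFP, a Foxp3 reporter, and kept in culture for 48 h. They are 3 of activated Treg (CD4+ CD45RBlow GFP+, given anti-CD3 and anti-CD28), 3 of resting Treg (same sort, no stimulation) and 2 of resting conventional T cells (CD4+ CD45RBhi GFP-, no stimulation). Their source label reads bone marrow. The second has 32 arrays of CD4+ CD45RBlo Foxp3-YFP+ Treg from spleen and lymph node, 8 in each of 4 groups: KO with Sema4a-Ig, KO with IgG1, WT with Sema4a-Ig and WT with IgG1. KO Treg are labelled Nrp fl/fl x Foxp3-YFP-iCre, so the floxed receptor gene Nrp1 is deleted only where Foxp3 drives the recombinase, and WT Treg carry the same Foxp3-YFP-iCre allele without the floxed gene. All 4 groups were stimulated with immobilized anti-CD3 at 1 µg/mL, soluble anti-CD28 at 2 µg/mL and human IL-2 at 100 U/mL, and differed in the immobilized protein, Sema4a-Ig or mouse IgG1 at 10 µg/mL. One Sema4a-Ig array, WT replicate 2, has WT in its title and the floxed genotype in its genotype label, and was grouped by its title. The labels give no ages and do not say whether replicates were separate animals or cultures, so p-values reflect variation among these arrays only, and part of it may be technical.

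Type I interferons bind a receptor made of Ifnar1 and Ifnar2, whose kinases Jak1 and Tyk2 phosphorylate Stat2. A complex that holds Stat2 and Irf9 then binds a DNA sequence called the interferon stimulated response element. The genes switched on in this way encode sensors of foreign nucleic acid, proteins that bind or cut viral RNA, and regulators that raise or dampen the pathway. Interferon gamma, the type II interferon made by T cells, uses another receptor and switches on an overlapping set.

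The response element can be read in the promoters of members that the results below turn on. The core of the element was taken as GAAA, any 2 bases and GAAA again, and was searched on both strands, the other strand reading TTTC, any 2 bases and TTTC, in the RefSeq promoter window of 300 bases, 250 before and 50 after the transcription start (build GRCm38.p6). The promoters of Ifit1bl1 (chr19:34601919-34602218, minus strand), Ifi213 (chr1:173599223-173599522, minus strand), Ifit1 (chr19:34640639-34640938, plus strand) and Ifit3 (chr19:34583279-34583578, plus strand) are printed in the direction of transcription, with each match in capitals. They are shown because these genes were among the 6 with the largest response to Sema4a-Ig in WT Treg and hold the motif. Some genes had several annotated starts. The first window with a match was printed, and a gene counted below if any of its windows held one. The start of a printed window need not be the outermost start of the gene. The windows of Ifit1bl1 and Ifit3 lay within the annotated span of the gene.
Ifit1bl1: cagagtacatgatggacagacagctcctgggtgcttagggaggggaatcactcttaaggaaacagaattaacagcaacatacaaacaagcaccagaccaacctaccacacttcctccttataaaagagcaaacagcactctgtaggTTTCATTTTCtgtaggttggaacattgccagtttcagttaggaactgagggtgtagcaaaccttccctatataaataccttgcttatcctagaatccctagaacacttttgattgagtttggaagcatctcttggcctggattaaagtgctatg
Ifi213: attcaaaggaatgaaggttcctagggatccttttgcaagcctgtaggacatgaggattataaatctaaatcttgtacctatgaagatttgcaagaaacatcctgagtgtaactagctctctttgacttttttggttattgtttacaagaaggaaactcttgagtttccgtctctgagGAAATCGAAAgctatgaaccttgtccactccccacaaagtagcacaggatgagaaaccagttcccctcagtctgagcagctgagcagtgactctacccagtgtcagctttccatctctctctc
Ifit1: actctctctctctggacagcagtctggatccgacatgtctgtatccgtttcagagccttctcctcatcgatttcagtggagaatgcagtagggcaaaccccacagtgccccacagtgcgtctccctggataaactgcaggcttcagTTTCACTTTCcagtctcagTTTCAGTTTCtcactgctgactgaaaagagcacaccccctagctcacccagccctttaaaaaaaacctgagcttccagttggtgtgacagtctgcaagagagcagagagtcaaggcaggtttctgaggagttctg
Ifit3: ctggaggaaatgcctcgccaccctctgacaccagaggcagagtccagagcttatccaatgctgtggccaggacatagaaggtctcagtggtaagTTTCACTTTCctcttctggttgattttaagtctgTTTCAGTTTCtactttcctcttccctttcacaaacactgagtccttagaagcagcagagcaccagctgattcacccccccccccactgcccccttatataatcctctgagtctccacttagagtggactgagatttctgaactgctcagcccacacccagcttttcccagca
The match began 104 bases before the start in Ifit1bl1 and 73 bases before it in Ifi213. Ifit1 held 2 matches, 104 and 85 bases before the start, and Ifit3 held 2, at 156 and 122 bases. Of 29 members with a promoter in the table, 13 held a match (44.8%), against 541 of 14766 measured genes (3.66%) and 1131 of all 32851 promoters (3.44%). A match was held by 6 of 13 members that rose with Sema4a-Ig in WT Treg (46.2%). It was held by 5 of 13 that were measured there and did not pass the test (38.5%). The promoter of Oasl2, also among the 6 largest responses, held none. A match describes these letters and does not show binding.

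The targeted gene and the cell type were checked first. In the sorted experiment Nrp1 (neuropilin-1, a receptor for semaphorins) had a log2 signal of 11.64 to 11.96 in activated Treg, 12.56 to 12.64 in resting Treg and 7.05 to 7.53 in conventional T cells, and Foxp3 lay at 10.33 or more in every Treg array and at 4.05 or less in conventional T cells. In the ligand experiment the lowest, median and highest Nrp1 signals were 8.60, 8.75 and 8.98 in KO with Sema4a-Ig, 8.18, 8.42 and 8.56 in KO with IgG1, 8.63, 8.72 and 9.01 in WT with Sema4a-Ig, and 8.15, 8.44 and 8.53 in WT with IgG1. These levels check nothing about the knockout, because the deposited values had each pair of a Sema4a-Ig and an IgG1 array set to the same mean at every probe set, within 6e-05. Only the 16 Sema4a-Ig minus IgG1 pair differences, 8 per genotype, carry information, and the levels of KO and WT cannot be compared. Foxp3 averaged 3.55 on these arrays, under the highest of 23 nonspecific control probe sets (3.95), so its probe set does not check the Treg label there. The other Treg markers, Ikzf2, Ctla4, Il2ra and Nrp1, averaged 11.11, 11.09, 10.26 and 8.58.

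None of 36 members passed the test in KO Treg given Sema4a-Ig, and 17 of 36 rose in WT Treg given Sema4a-Ig, with none falling (limma, adjusted p under 0.05 over all genes). Over all genes the test called 0% in KO, and 2.91% higher and 2.88% lower in WT. The share of members that rose in WT was 47.2%. The adjustment was made within each comparison, so a difference of the same size can pass in WT and not in KO. Counts of calls therefore do not compare the genotypes. The list was chosen with earlier results of these data known. Its shares, here and below, therefore describe the list and are not independent support. The median Sema4a-Ig effect over the 36 members was 0.05 in KO and 0.33 in WT on the log2 scale, against -0.02 and -0.01 over all genes. Values were above 0 for 26 of 36 members in KO (45% of all genes) and for 33 of 36 in WT (46.1% of all genes). At an unadjusted p under 0.05 there were 5 of 36 members in KO (10.5% of all genes) and 25 of 36 in WT (21.1% of all genes). All 8 pairs were positive for 1 member in KO (0.988% of all genes) and for 17 in WT (3.03%), and all 8 were negative for none of the members in either genotype, against 1.66% and 4.36% of all genes. In bulk samples such as these, fewer cells of a type and less RNA per cell cannot be told apart.

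**Figure D1:**
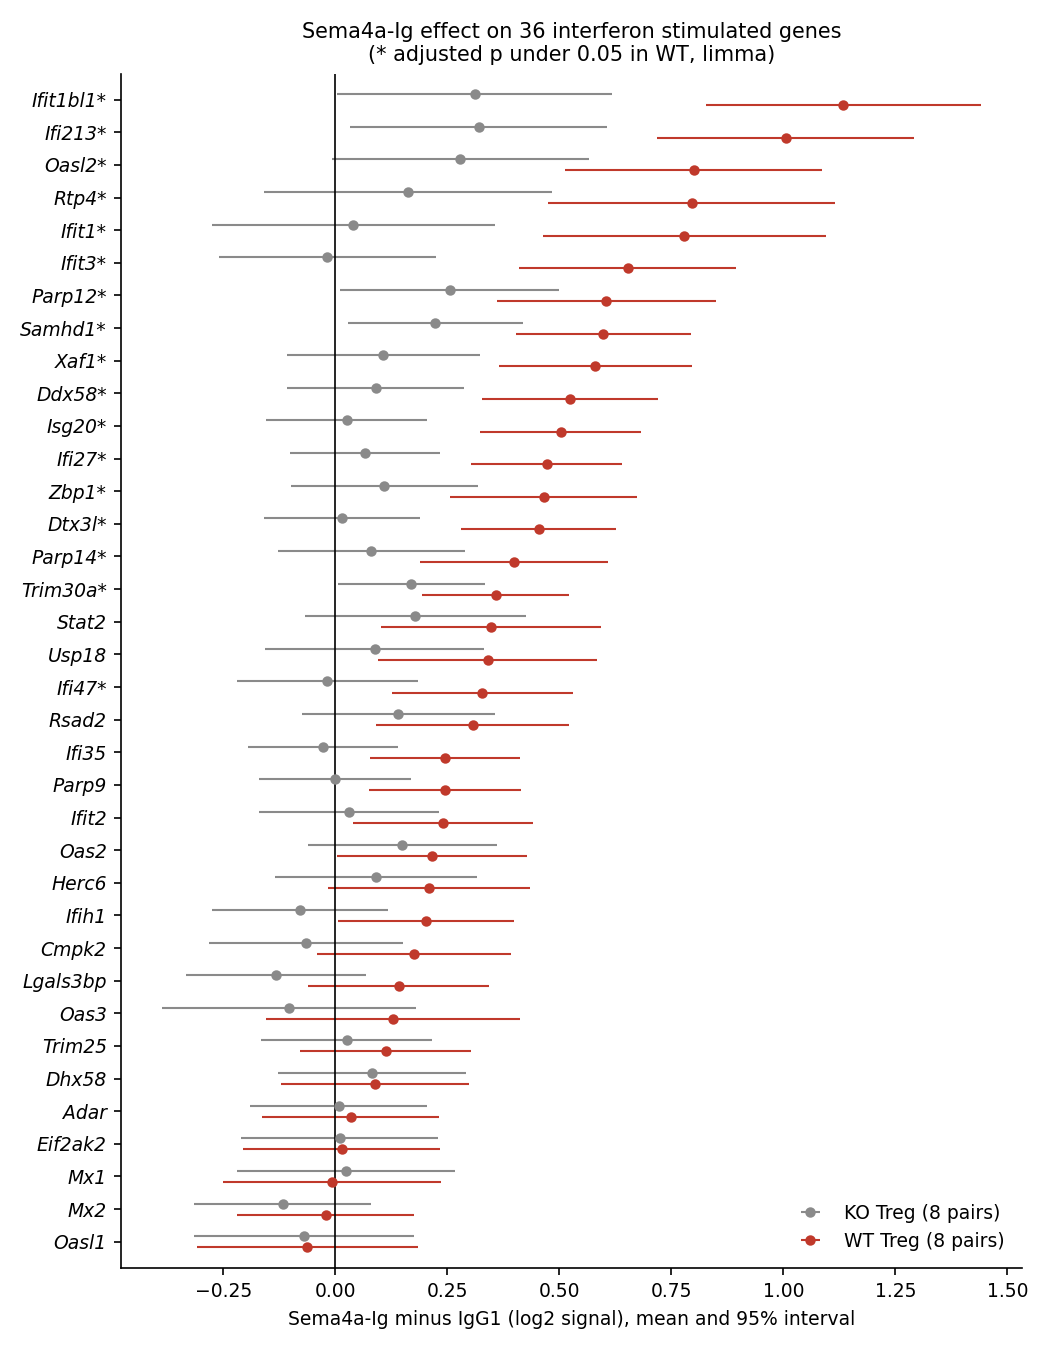
Mean Sema4a-Ig minus IgG1 difference (log2 signal, x axis) of 36 interferon stimulated genes, with 95% intervals from limma, in KO Treg (grey, upper of each pair) and WT Treg (red), 8 array pairs each. The means lie between -0.13 and 0.32 in KO and between -0.06 and 1.13 in WT, and an asterisk marks the 17 genes that rose in WT.

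Of 11 measured genes whose proteins bind or cut RNA, none passed in KO Treg and 5 rose in WT Treg. Ifit1bl1, a member of the tetratricopeptide repeat family to which Ifit1 belongs, had pair differences with a lowest, median and highest value of -0.23, 0.40 and 0.88 in KO and 0.27, 1.09 and 2.06 in WT. Every WT pair was positive, while 1 KO pair was negative, and the ranges overlapped. Its mean difference was 0.31 ± 0.15 in KO (standard error, adjusted p = 0.475) and 1.13 ± 0.15 in WT (adjusted p = 0.000392). Ifit1, which binds the 5′ ends of foreign RNA, had -0.95, 0.10 and 0.61 in KO and -0.15, 0.75 and 1.42 in WT, with means of 0.04 ± 0.15 and 0.78 ± 0.15. Its 1 negative WT pair was replicate 5. Ifit3, a partner of Ifit1 in the human protein complex, had -0.36, -0.04 and 0.49 in KO and 0.10, 0.68 and 1.3 in WT, with means of -0.02 ± 0.12 and 0.65 ± 0.12. All 8 WT pairs of Ifit3 were positive against 3 of 8 KO pairs. The probe sets are each annotated to 1 gene, and whether they also detect the related Ifit transcripts was not tested.

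Oasl2, of the oligoadenylate synthetase family that signals to RNase L, had -0.30, 0.29 and 0.82 in KO pairs and -0.04, 0.85 and 1.51 in WT pairs. Its WT mean was 0.80 ± 0.14 (adjusted p = 0.00244) with 7 of 8 pairs positive, at a mean signal of 4.08 that was close to the highest nonspecific control. Isg20, an exonuclease that degrades single-stranded RNA, had -0.25, 0.04 and 0.23 in KO pairs and 0.16, 0.49 and 0.92 in WT pairs. All WT pairs were above 0 and KO pairs lay on both sides of it. The adjusted p of the WT mean lay between 0.000392 and 0.00533 for these 5 genes. The other 6 of the group, Ifit2, Oasl1, Oas2, Oas3, Eif2ak2 and Adar, lay between -0.10 and 0.15 in KO and between -0.06 and 0.24 in WT and did not pass the test. Eif2ak2 (PKR, which halts translation on double-stranded RNA) had a mean of 0.01 in both genotypes, with an interval of -0.21 to 0.23 in KO and in WT.

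Among the 4 sensors of nucleic acid, 2 rose in WT Treg. Ddx58 (RIG-I, a sensor of viral RNA ends) had pair differences of -0.20, 0.11 and 0.36 in KO and 0.07, 0.60 and 0.94 in WT (lowest, median, highest). Its WT mean was 0.52 ± 0.09 (adjusted p = 0.00302) and all 8 WT pairs were positive, against 5 of 8 KO pairs. Zbp1, a sensor of Z-form nucleic acid, had a mean of 0.11 ± 0.10 in KO and 0.46 ± 0.10 in WT (adjusted p = 0.0105). Ifih1 (MDA5, a sensor of long double-stranded RNA) had -0.60, -0.08 and 0.52 in KO pairs and 0.02, 0.22 and 0.34 in WT pairs. All 8 WT pairs of Ifih1 were above 0, but its mean of 0.20 ± 0.09 did not pass the test (adjusted p = 0.218). Dhx58 (LGP2, which modulates the other RNA sensors) averaged 0.08 in KO and 0.09 in WT.

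Of the group of Parp9, Parp12, Parp14 and Dtx3l, 3 of 4 rose in WT and none in KO. Parp12 and Parp14 attach ADP-ribose to proteins, and Dtx3l is a ubiquitin ligase that acts in a complex with Parp9. Parp12 had -0.25, 0.21 and 0.95 in KO pairs and 0.11, 0.59 and 1.07 in WT pairs, with a WT mean of 0.60 ± 0.12 (adjusted p = 0.00516). Its WT pairs were all positive, as were 7 of 8 KO pairs. Dtx3l had a mean of 0.02 ± 0.08 in KO and 0.45 ± 0.08 in WT, and the lowest WT pair (0.16) was above the highest KO pair (0.14). It was the only member, and 1 of 5 genes in all (0.0292%), in which every WT pair exceeded every KO pair. Parp14 averaged 0.08 ± 0.10 in KO and 0.40 ± 0.10 in WT (adjusted p = 0.0244), and the call was lost when WT replicate 2, 3 or 7 was left out. Parp9, with 0.24 ± 0.08 in WT, was positive in all 8 WT pairs and did not pass (adjusted p = 0.0779).

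Of 3 members of nucleotide metabolism, Samhd1 alone passed the test in WT. Samhd1, which breaks down deoxynucleotides, had 0.01, 0.23 and 0.48 in KO pairs and 0.23, 0.47 and 1.31 in WT pairs. It was positive in all 8 pairs of both genotypes, the only member of which this holds in KO, where 0.988% of all genes did so, and its mean was 0.22 ± 0.09 in KO (adjusted p = 0.453) and 0.60 ± 0.09 in WT (adjusted p = 0.000958). Its second probe set gave 0.20 in KO and 0.63 in WT. Rsad2 (viperin, an enzyme that alters nucleotides) averaged 0.14 in KO and 0.31 in WT (adjusted p = 0.0833), and Cmpk2, a nucleotide kinase next to it in the genome, -0.07 in KO and 0.18 in WT at a signal below the highest nonspecific control.

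The members outside these families held 5 that rose in WT of 7 measured. Ifi213, of the Ifi200 family that includes DNA sensors, had -0.14, 0.25 and 0.82 in KO pairs and 0.44, 0.78 and 1.85 in WT pairs. Every WT pair was at least 0.44, above the KO median, and the mean was 0.32 ± 0.14 in KO (adjusted p = 0.462) and 1.01 ± 0.14 in WT (adjusted p = 0.000392). A dimmer second probe set of Ifi213, below the highest nonspecific control, gave -0.04 in KO and 0.56 in WT. Rtp4, a receptor chaperone, had -0.67, 0.20 and 0.59 in KO pairs and 0.03, 0.81 and 1.52 in WT pairs. WT replicates 1 and 5 of Rtp4 lay near 0 (0.10 and 0.03) and replicates 2, 3, 6 and 7 above 1.

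Xaf1, a binding partner of the apoptosis inhibitor XIAP, had -0.27, 0.07 and 0.45 in KO pairs and 0.15, 0.50 and 1.05 in WT pairs. Ifi27, a small mitochondrial membrane protein, had -0.15, 0.06 and 0.32 in KO pairs and 0.04, 0.49 and 0.94 in WT pairs. All 8 WT pairs of both genes were positive, and their WT means were 0.58 ± 0.10 and 0.47 ± 0.08. Trim30a, of a family of ubiquitin ligases, averaged 0.17 ± 0.08 in KO and 0.36 ± 0.08 in WT (adjusted p = 0.0119), and the call was lost without WT replicate 3 (adjusted p = 0.053). Ifi35 and Lgals3bp did not pass, with 0.25 and 0.14 in WT. Further probe sets of called members, in KO and WT, gave 0.24 and 0.30 for Parp14, at a mean signal of 6.82. They gave 0.004 and 0.63 for Zbp1, 0.08 and 0.36 for Trim30a, -0.05 and 0.35 for Ifi27, and 0.02 and 0.52 for Ddx58. Those below the highest nonspecific control gave 0.16 and 0.10 for Rtp4, 0.10 and 0.22 for Xaf1, and 0.04 and -0.01 for Ddx58.

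Among the GTPases, Ifi47 averaged -0.02 ± 0.10 in KO and 0.33 ± 0.10 in WT, where it passed narrowly (adjusted p = 0.0492) and lost the call in 12 of 16 fits that left out 1 pair. Mx1, an antiviral GTPase whose gene is disrupted in most inbred laboratory mice, had -0.39, -0.02 and 0.39 in KO pairs and -0.59, -0.04 and 0.68 in WT pairs. Its mean signal of 2.98 was below the highest nonspecific control, as it was for Oasl1, Oas2, Oas3 and Cmpk2, none of which passed the test. Mx2 averaged -0.12 in KO and -0.02 in WT. None of the 3 members tied to the ubiquitin-like protein Isg15 passed: Usp18, which removes Isg15 and restrains the receptor, averaged 0.09 in KO and 0.34 in WT (adjusted p = 0.0879), Herc6 0.09 and 0.21, and Trim25 0.03 and 0.11. Stat2, the transcription factor of the list, had -0.31, 0.19 and 0.53 in KO pairs and -0.18, 0.33 and 1.20 in WT pairs. WT replicate 1 gave the value of 1.20, no other WT pair exceeded 0.54, and the mean of 0.35 ± 0.12 did not pass (adjusted p = 0.0845). A dimmer probe set of Stat2, at a mean signal of 5.07, gave 0.35 in KO and 0.38 in WT.

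**Figure D2:**
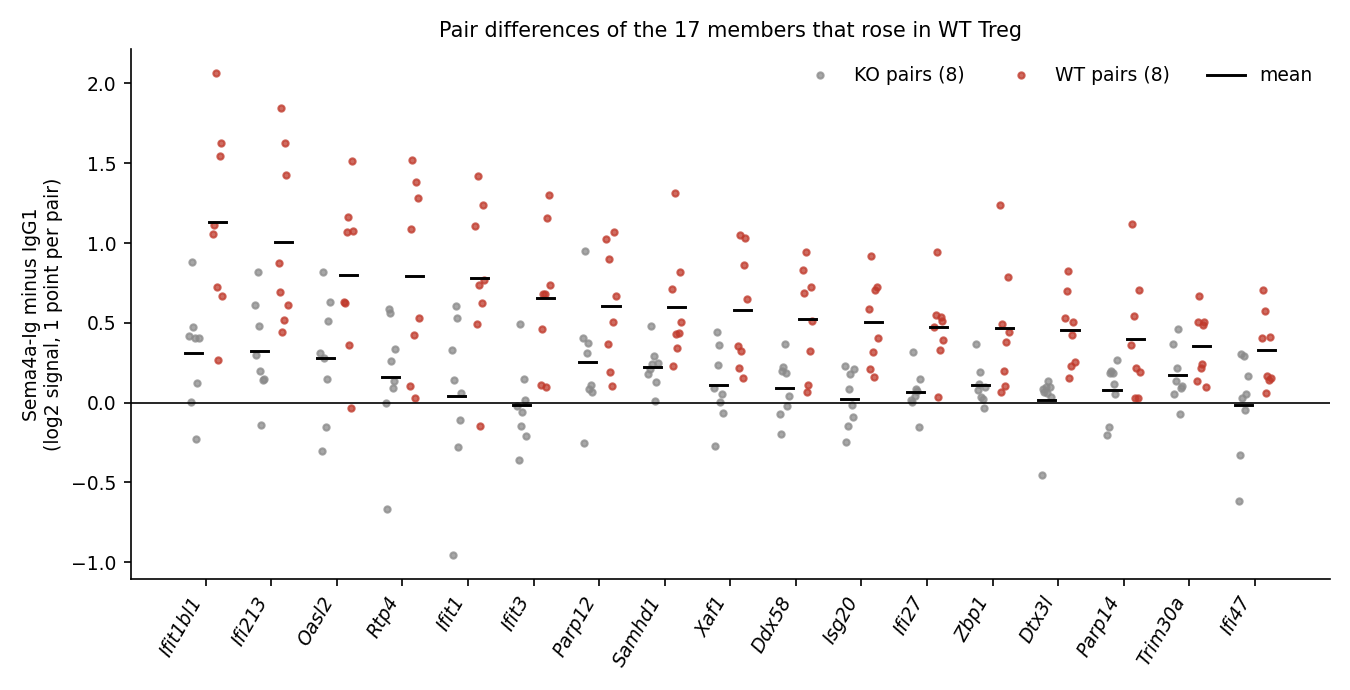
Sema4a-Ig minus IgG1 difference (log2 signal, y axis) in each array pair for the 17 members that rose in WT Treg, KO pairs (grey) left of WT pairs (red), 8 each, with the mean as a bar. WT pairs reach 2.06 for Ifit1bl1 and 1.85 for Ifi213, the lowest KO value is -0.95 for Ifit1, and only Dtx3l has no overlap.

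The Sema4a-Ig effect was then compared between the genotypes. No member passed the test of KO minus WT (smallest adjusted p = 0.614), nor did any of the 17097 genes (0%). At an unadjusted p under 0.05 there were 19 of 36 members, all with a smaller effect in KO, a share of 52.8% against 5.94% of all genes. This share too describes a list chosen with earlier results known. The mean effect was lower in KO than in WT for 35 of 36 members, Mx1 being the exception, while 49.5% of all genes lay on that side. The median difference over the members was -0.27. Ifit1bl1 had the widest difference (-0.82 ± 0.21, 95% interval -1.26 to -0.39), followed by Ifit1 (-0.74, interval -1.19 to -0.29) and Ifi213 (-0.69, interval -1.09 to -0.28). For Ifit3, Isg20 and Dtx3l the difference was -0.67, -0.48 and -0.44, with intervals below 0. Trim30a was the only member called in WT whose interval for KO minus WT, -0.42 to 0.04, held 0. In KO Treg 5 members had an unadjusted p under 0.05, 13.9% against 10.5% of all genes, and all 5, Ifi213, Ifit1bl1, Parp12, Samhd1 and Trim30a, were among those that rose in WT. Since no member passed the adjusted test of the difference, the response is not shown to differ between the genotypes for any single gene.

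The mean over the 36 members gave 1 value per pair. It had a lowest, median and highest value of -0.08, 0.10 and 0.17 in KO and 0.08, 0.34 and 0.63 in WT, with means of 0.07 ± 0.08 and 0.37 ± 0.19 (SD, n = 8 pairs each). The value was above 0 in 6 of 8 KO pairs and in all 8 WT pairs, and 2 WT pairs, replicates 4 and 5 (0.19 and 0.08), came down to the KO range or near it. Between 17 and 31 members were positive in a KO pair and between 25 and 34 in a WT pair. Without WT replicate 2, the array with conflicting labels, 15 members rose.

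The mean over a list of 16 myeloid markers moved with this result in WT pairs. None of 16 myeloid markers passed in KO, and 3 of 16 rose in WT. These were Lyz2 (0.25 in KO and 0.81 in WT), Tyrobp (0.36 and 0.39) and Ctss (0.16 and 0.37). Ctss had the highest mean signal of the 16, at 10.14, and averaged 12.65 on the sorted T cell arrays. Whether its signal came from myeloid cells was not tested. The mean of the 16 markers lay between -0.22 and 0.39 over KO pairs and between -0.20 and 0.58 over WT pairs, and the 2 WT pairs in which it was negative, replicates 4 (-0.20) and 5 (-0.06), were the pairs with the lowest member means, while replicates 3 and 7 were highest in both. Of the 16 markers 7 averaged below the highest nonspecific control, among them Cd14, Itgam and Adgre1. With this mean as a covariate no member passed in WT (and none of the 17097 genes), the 17 members kept values of 0.27 to 0.93, and 17 of 36 members had an unadjusted p under 0.05. KO replicate 4 had a myeloid mean of 0.39 with a member mean of 0.17. Of 5 measured markers of plasmacytoid dendritic cells, a strong source of type I interferon, none passed in either genotype, and their mean lay between -0.12 and 0.32 in KO pairs and between -0.21 and 0.27 in WT pairs. Myeloid genes were not the only markers called in WT. Ikzf2 and Nrp1, of 5 Treg markers, and Cd79b, of 9 B cell markers, also rose, and Nkg7, of 11 CD8 and NK cell markers, fell. No gene of these 3 lists was called in KO, but the difference of Nrp1 was similar there, 0.34 in KO against 0.37 in WT. The smallest adjusted p of a Treg marker in KO was 0.378 (limma). The mean of the 5 Treg markers was above 0 in all 8 WT pairs and in 6 of 8 KO pairs. The 4 T cell genes held no call in either genotype, nor did 9 of MHC class II and dendritic cells. The part of other cells in the result was not tested.

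**Figure D3:**
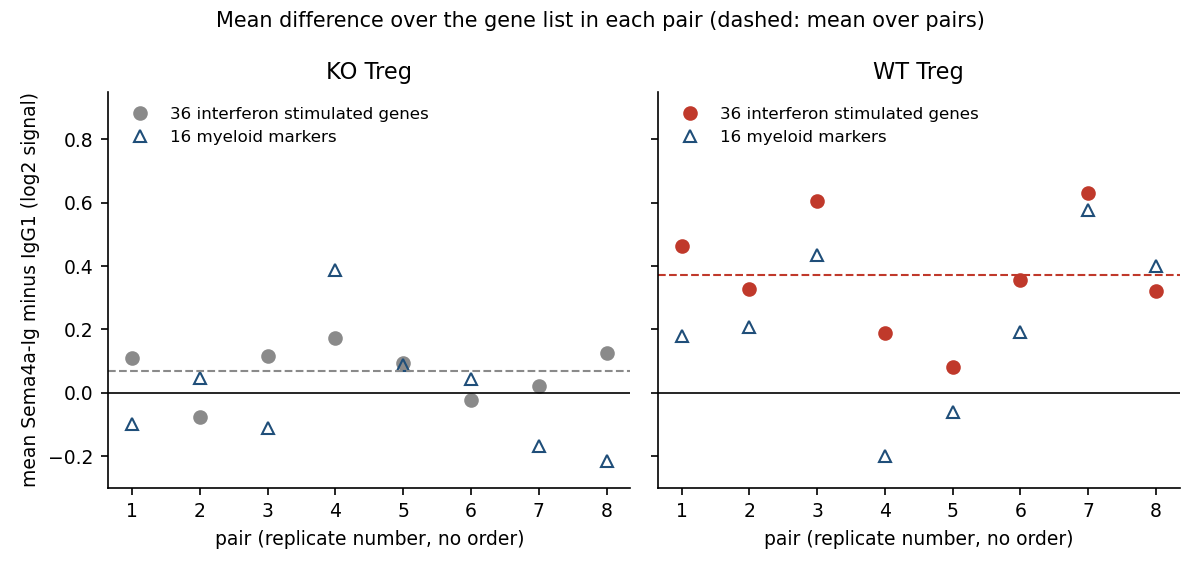
Mean Sema4a-Ig minus IgG1 difference (log2 signal, y axis) over the 36 interferon stimulated genes (circles) and over 16 myeloid markers (triangles) in each of 8 KO pairs (left) and 8 WT pairs (right). The circles run from -0.08 to 0.17 in KO and from 0.08 to 0.63 in WT, and in WT the lowest circles, replicates 4 and 5, go with the negative triangles.

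The pathway upstream of the members was read from 4 further lists, where calls over all genes in WT made up 5.79%. Of 7 measured genes of the type I receptor and its signalling none passed in KO and 2 rose in WT. These were Ifnar1, a receptor chain, with -0.03 ± 0.09 in KO and 0.31 ± 0.09 in WT (adjusted p = 0.0426), and Irf7, the factor that amplifies interferon production, with -0.09 ± 0.12 in KO and 0.55 ± 0.12 in WT (adjusted p = 0.0117). Irf7 was positive in all 8 WT pairs and in 2 of 8 KO pairs. Irf9, a partner of Stat2, had 0.19 in KO and 0.29 in WT and did not pass. None of 9 sensing adaptors, from Mavs to Tbk1, passed in either genotype.

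Of 5 negative regulators, Socs3, which dampens cytokine signalling, had 0.14 ± 0.12 in KO and rose by 0.60 ± 0.12 in WT (adjusted p = 0.00488). Among 8 genes of the type II pathway, Ifngr1, a chain of the interferon gamma receptor, had 0.26 ± 0.09 in KO (adjusted p = 0.396) and rose by 0.64 ± 0.09 in WT (adjusted p = 0.000631). Ifng, which encodes interferon gamma itself, passed the test in WT only, though its mean was at least as low in KO. It had pair differences of -2.60, -0.70 and 0.02 in KO and -1.95, -0.64 and -0.06 in WT (lowest, median, highest), with means of -0.93 ± 0.22 (adjusted p = 0.376) and -0.85 ± 0.22 (adjusted p = 0.029). It was lower with Sema4a-Ig in 7 of 8 KO pairs and in all 8 WT pairs. Cxcl10 and Irf1, which both interferon types induce, did not pass, with -0.10 and 0.02 in KO and -0.17 and 0.25 in WT.

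In the sorted T cells the comparisons were between activated and resting Treg and between each of them and conventional T cells. Members changed in both directions. Of 37 members 2 fell and none rose in activated Treg against resting Treg (0.22% of all genes fell and 0.522% rose, 0.742% in all). Against conventional T cells, 1 rose and 3 fell in resting Treg (3.86% of all genes rose and 1.65% fell, 5.51% in all), and 2 rose and 6 fell in activated Treg (5.93% rose and 3.77% fell, 9.7% in all). At an unadjusted p under 0.05 there were 6 of 37 members for activated against resting Treg (11.5% of all genes), 16 for resting Treg against conventional T cells (17.9%) and 15 for activated Treg against conventional T cells (21.6%). Differences were above 0 for 12 of 37 members in the first of these comparisons (50.6% of all genes), 17 in the second (51%) and 16 in the third (52.1%). The median difference over the members was -0.26 for activated minus resting Treg, -0.12 for resting Treg minus conventional T cells and -0.09 for activated Treg minus conventional T cells. Markers of other cells also differed. The mean of 9 B cell markers was 5.94 to 6.70 in activated Treg, 6.10 to 6.65 in resting Treg and 5.39 to 5.58 in conventional T cells, with Cd79b and Ighm higher in both Treg states and Cd79a in resting Treg. The mean of 7 plasmacytoid dendritic cell markers, which include the member Bst2, was 5.61 to 5.72, 5.93 to 6.32 and 5.28 to 5.31 in the same order, with Tcf4 higher in both Treg states and Ccr9 in resting Treg. That of 16 myeloid markers was 5.57 to 7.18, 5.31 to 5.97 and 5.26 to 5.29, with activated replicate 1 at 7.18 against 5.81 and 5.57 in the other activated arrays. Cybb was higher and Fcgr3 lower in both Treg states, and Lyz1 higher in activated Treg. Of 10 CD8 and NK cell markers, Klrd1 was lower in both Treg states, Prf1 lower and Gzmb higher in activated Treg. The part of these cells in the members' differences was not tested. The first and last of the 3 comparisons share the activated arrays, the first 2 share the resting Treg arrays, and the last 2 the conventional T cell arrays.

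The mean over the 37 members was 7.90, 7.99 and 7.99 in activated Treg, 8.04, 8.17 and 8.35 in resting Treg, and 8.12 and 8.24 in conventional T cells. All 3 activated arrays lay below the other 5. Among single members, 2 were higher and 5 lower in activated than in resting Treg with no overlap, against 6.03% and 6.94% of all genes. In resting Treg against conventional T cells 11 were higher and 13 lower with no overlap (21.6% and 20.4% of all genes), and in activated Treg against conventional T cells 6 were higher and 13 lower (21.4% and 19.7%).

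Ifit2, which binds RNA and restrains translation, had log2 signals of 10.02, 10.19 and 10.33 in activated Treg, 11.39, 11.62 and 10.98 in resting Treg, and 12.26 and 12.21 in conventional T cells. The 3 groups did not overlap, with conventional T cells highest. It fell in each comparison (limma), with a difference of -1.15 ± 0.19 in activated against resting Treg (adjusted p = 0.044), of -0.91 ± 0.21 in resting Treg against conventional T cells (adjusted p = 0.0478) and of -2.06 ± 0.21 in activated Treg against conventional T cells (adjusted p = 0.000772). The call in resting Treg against conventional T cells was lost in 7 of 8 fits that left out 1 array, all but that without resting Treg replicate 2, while the call in activated Treg against conventional T cells was lost in none. Ifit1bl1 had 9.72, 10.13 and 10.87 in activated Treg, 11.74, 12.20 and 12.06 in resting Treg, and 12.12 and 12.57 in conventional T cells. Its activated arrays were below all others, and resting Treg overlapped conventional T cells. The difference was -1.76 ± 0.30 in activated against resting Treg (adjusted p = 0.0455) and -2.10 ± 0.33 in activated Treg against conventional T cells (adjusted p = 0.00597). The calls of Ifit2 and Ifit1bl1 between activated and resting Treg depended on single arrays. Leaving out activated replicate 1 or 2, resting replicate 1 or 2, or either conventional array left 0 calls, and leaving out activated replicate 3 or resting replicate 3 left 1, with differences that stayed between -2.07 and -1.50 for Ifit1bl1 and between -1.33 and -1.0 for Ifit2.

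Ifi213 separated Treg from conventional T cells. It had 8.60, 8.94 and 9.01 in activated Treg, 9.63, 10.04 and 8.69 in resting Treg, and 11.50 and 11.55 in conventional T cells. Every Treg array was below both conventional arrays, with differences of -2.67 ± 0.35 for activated Treg (adjusted p = 0.00267) and -2.07 ± 0.35 for resting Treg (adjusted p = 0.0128). A dimmer probe set of Ifi213 averaged 4.87 in activated Treg, 4.53 in resting Treg and 6.79 in conventional T cells. Oasl2 had 4.78, 4.79 and 4.12 in activated Treg, 4.18, 4.84 and 4.33 in resting Treg, and 5.61 and 5.81 in conventional T cells. Both Treg states overlapped and lay below conventional T cells, with differences of -1.14 ± 0.27 for activated Treg (adjusted p = 0.0365) and -1.26 ± 0.27 for resting Treg (adjusted p = 0.0375). The mean signal of Oasl2 over the sorted arrays was 4.81, the 33.4th percentile of genes. Each of these calls of Oasl2 was lost in 5 of 8 fits that left out 1 array: without any activated array or either conventional array for activated Treg, and without resting replicate 1 or 3, activated replicate 2 or either conventional array for resting Treg.

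Isg20 was higher in Treg. Its signals were 8.40, 8.35 and 8.25 in activated Treg, 8.23, 8.49 and 9.66 in resting Treg, and 6.89 and 6.94 in conventional T cells. The 2 Treg states overlapped and both lay above conventional T cells, by 1.42 ± 0.37 (adjusted p = 0.0488) in activated and 1.88 ± 0.37 (adjusted p = 0.0237) in resting Treg. The call in activated Treg was lost in 6 of 8 fits that left out 1 array, each activated array, resting replicate 2 and each conventional array among them, and that in resting Treg in 3 of 8, without activated replicate 2 or either conventional array. Eif2ak2 had 6.12, 5.08 and 6.39 in activated Treg, 5.23, 5.37 and 5.67 in resting Treg, and 3.89 and 4.01 in conventional T cells. All Treg arrays were above the conventional ones, and the difference passed in activated Treg (1.92 ± 0.36, adjusted p = 0.0122) and not in resting Treg (1.48 ± 0.36, adjusted p = 0.0528). Other probe sets of Eif2ak2 were also higher in both Treg states, but by much less. They averaged 5.312 and 5.335 in activated Treg, 5.080 and 5.273 in resting Treg, and 4.603 and 4.648 in conventional T cells. The call in activated Treg was kept with the mean of all probe sets, so its size depends on the probe set.

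Ddx58 and Oas2, an oligoadenylate synthetase, were lower in activated Treg than in conventional T cells. Ddx58 had 8.57, 8.51 and 8.36 in activated Treg, 8.89, 9.20 and 9.34 in resting Treg, and 9.71 and 9.69 in conventional T cells, 3 groups without overlap. The difference was -1.22 ± 0.18 for activated Treg against conventional T cells (adjusted p = 0.00429), and those for activated against resting Treg (-0.66, adjusted p = 0.126) and resting Treg against conventional T cells (-0.56, adjusted p = 0.133) did not pass. Dimmer probe sets of Ddx58 were also lower in both Treg states but barely differed between them. They averaged 5.53 and 4.85 in activated Treg, 5.49 and 4.86 in resting Treg, and 6.96 and 5.35 in conventional T cells. Oas2 had 5.65, 5.45 and 5.46 in activated Treg, 5.78, 5.67 and 5.95 in resting Treg, and 6.34 and 6.74 in conventional T cells. Its activated arrays were below all others, with -1.02 ± 0.18 against conventional T cells (adjusted p = 0.0106). Every comparison with conventional T cells has 2 arrays on that side: leaving out either left 0 calls in resting Treg, and 4 (without replicate 1) or 2 (without replicate 2) in activated Treg, where Ifit2 and Ifi213 passed both times.

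**Figure D4:**
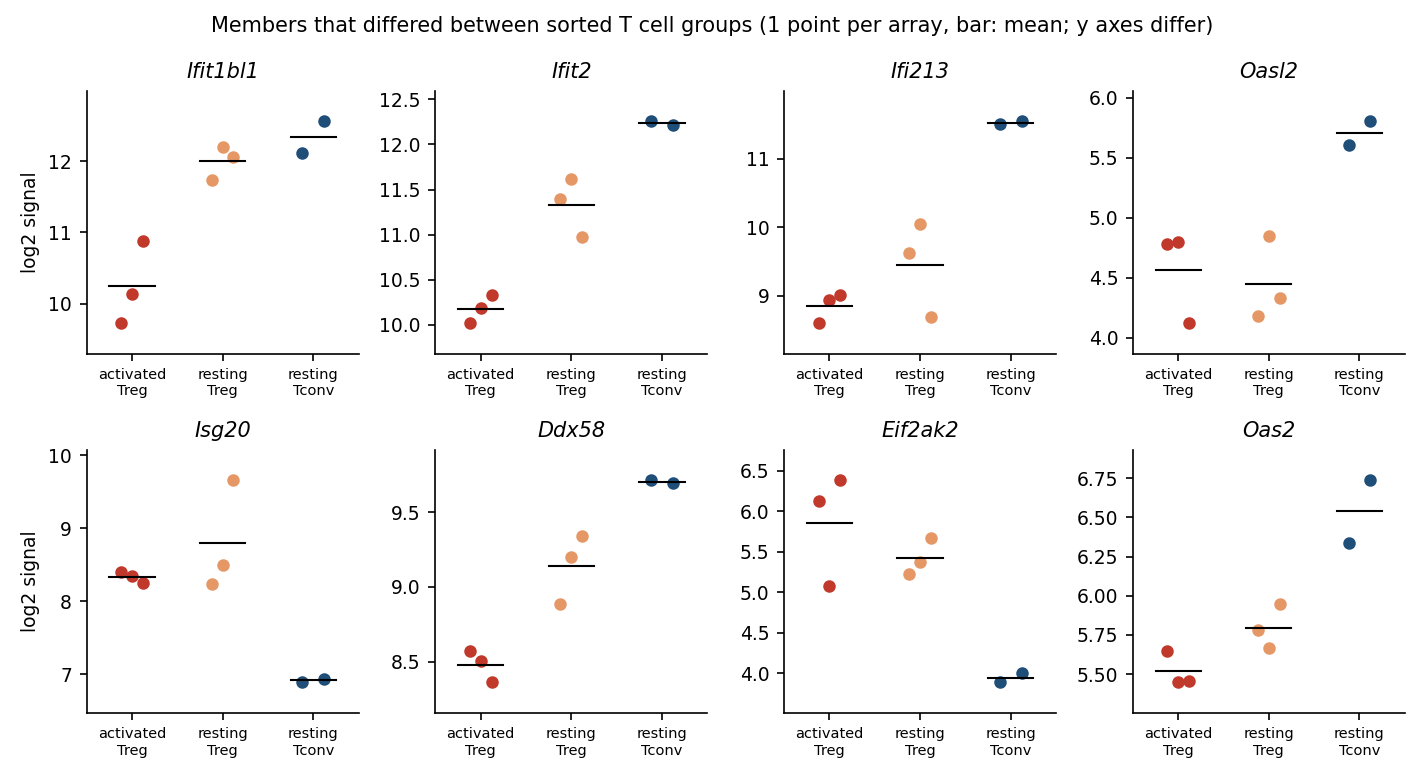
Log2 signal (y axis, its range differs between panels) of the 8 members that passed the test in a comparison of sorted cells, 1 point per array with the group mean as a bar, for activated Treg, resting Treg and resting conventional T cells from left to right. Ifit2 steps up from about 10.18 in activated Treg over 11.33 in resting Treg to a mean of 12.24 in conventional T cells, whereas Isg20 and Eif2ak2 are higher in both Treg groups.

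The landmark genes did not pass any test between sorted groups. Mx1 had 5.56, 5.0 and 6.56 in activated Treg, 4.80, 6.25 and 8.37 in resting Treg, and 4.41 and 4.46 in conventional T cells. Every Treg array was above the conventional ones, but the resting Treg arrays spread over a wide range (2.03 ± 0.89 against conventional T cells, adjusted p = 0.285). Stat2 had 5.19, 5.34 and 5.91 in activated Treg, 5.44, 5.75 and 5.08 in resting Treg, and 6.15 and 6.10 in conventional T cells, where it was highest without overlap. Ifih1 had 8.97, 9.11 and 8.46 in activated Treg, 8.73, 9.10 and 9.17 in resting Treg, and 8.20 and 8.50 in conventional T cells, and the resting Treg arrays lay above the conventional ones.

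Resting Treg replicate 3 stood apart from its group for several members, which were picked after their values were seen. Dhx58 was 7.21 in it and 5.11 and 5.45 in the other resting Treg arrays, Mx1 8.37 against 4.80 and 6.25, Isg20 9.66 against 8.23 and 8.49, and Lgals3bp, a secreted glycoprotein, 7.52 against 5.54 and 6.20. In the same array the mean of 9 markers of dendritic cells and of MHC class II was 6.93, against 5.75 and 5.91 in the other resting Treg arrays, and that of the 7 plasmacytoid dendritic cell markers was 6.32 against 5.96 and 5.93. Their part in these values was not tested. Without this array the difference between resting Treg and conventional T cells was 1.45 for Isg20 and -1.69 for Ifi213, which both passed, and -0.73 for Ifit2, which did not (adjusted p = 0.0822). RNA quality also differed between the sorted arrays: the 3′ minus 5′ signal of Actb was 5.87, 6.17 and 2.31 in activated Treg, 5.90, 2.50 and 2.67 in resting Treg, and 1.24 and 1.54 in conventional T cells. With 2 classes of this measure as a block, both calls between activated and resting Treg passed. The same block ended the call of Ifit2 in resting Treg against conventional T cells (adjusted p = 0.0508) and those of Isg20 (adjusted p = 0.0533) and Oasl2 (adjusted p = 0.061) in activated Treg against conventional T cells, where 6 members passed. In the 5 arrays of the low class alone, a choice made after seeing the data, neither call between activated and resting Treg passed, at differences of -1.26 and -0.96.

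The pathway lists in the sorted cells had no call between activated and resting Treg. Against conventional T cells, the suppressors Socs1 and Socs3 were both lower, with differences of -1.07 and -1.38 in activated Treg and of -1.09 and -1.08 in resting Treg. Tlr7, an endosomal sensor of RNA, and the chemokine gene Cxcl10 were both higher, by 1.75 and 1.23 in activated Treg and by 2.29 and 1.99 in resting Treg. Irf7 was lower in activated Treg (-1.21 ± 0.27, adjusted p = 0.0273), together with the kinase genes Jak1 (-1.35) and Ikbke (-2.05), while Ifnar2 (0.99) and Tyk2 (0.68) were higher. In resting Treg these 5 did not pass.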

How the data were processed

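RNA was measured on Affymetrix arrays, 8 of sorted T cells and 32 of Treg given Sema4a-Ig or IgG1. The deposited values are log2 signals per probe set, made with RMA and Partek 6.6 per the submitters' processing notes. They carry no read depth, so the number of arrays limits the precision. Array means lay between 6.01221 and 6.01369 in the sorted experiment and between 4.78287 and 4.8003 in the ligand experiment. No per-sample column was left unused (0).

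Genes were represented by the single-gene probe set with the highest mean. Tests used limma 3.58.1 in R 4.3.3 (lmFit, eBayes) with Benjamini-Hochberg adjustment over all genes and a threshold of 0.05. Tables were handled in Python 3.11.15. The sorted fit held 3 groups. In the ligand experiment, neighbouring title codes pair a Sema4a-Ig with an IgG1 array, and in all 16 pairs the deposited values of 45141 probe sets had equal pair means within 6e-05. The fit therefore used the 16 pair differences, with a mean per genotype. The 2 experiments were normalized separately and were not compared in level.

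The members, roles and gene lists were chosen with earlier results of these data known. Any member could be named. For members past the threshold, the value of every array was given in the sorted experiment. In the ligand experiment the lowest, median and highest pair difference were given for at most 12, and the mean for the others. Mx1, Stat2 and Ifih1 were given in the same ways. Genes outside the list were named from the pathway lists where they passed, and some, such as Irf9, Cxcl10 and Irf1, where they did not. Alternatives covered the probe set per gene, a filter on dim genes, scaling, pairing, RNA quality, a myeloid score, array weights, the variance prior and leaving out each replicate. The scripts were tested on simulated data.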

Additional observations from a re-analysis of the deposited data

Results flagged for a closer look

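In 2 of 42 groups of 8 pair differences, 1 pair lay far from the other 7 by Dixon's criterion. Chance flags about 1 in 20 groups. Dtx3l had a Sema4a-Ig minus IgG1 difference of -0.454 in KO replicate 1, where the other KO pairs lay between 0.03 and 0.14. Rtp4 had a difference of -0.667 in KO replicate 2, where the other KO pairs lay between -0.01 and 0.59.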

How the results depend on the processing

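No called gene changed direction under any alternative, and no mean over the members moved by more than the spread between replicates. The mean over the members for resting Treg minus conventional T cells, 0.0042, had no stable sign. It was -0.097 with the mean of all probe sets, -0.080 with quantile normalization, -0.061 with dim genes left out, and between -0.076 and 0.078 when an array was left out. The other 5 means kept their sign. For activated minus resting Treg, the count of 2 members became 4 with array weights, 0 in the low Actb class alone (chosen after seeing the data) and 0 to 1 when an array was left out. For resting Treg minus conventional T cells, the count of 4 became 8 with the mean of all probe sets, 8 with the RNA quality class as a block, 14 with array weights and 0 to 4 when an array was left out, with 2 without resting Treg replicate 1. For activated Treg minus conventional T cells, the count of 8 became 18 with array weights, 3 in the low Actb class alone and 2 to 10 when an array was left out. The analysis of Sema4a-Ig was paired. With no replicate block, the count became 3 in KO, 26 in WT and 15 for KO minus WT, against 0, 17 and 0 with the pairing. The deposited pair means were equal in every pair, so the 2 arrays of a pair mirror each other. The fit with no block treats them as independent, which they are not, and its counts are no evidence of a response. In WT the myeloid score as a covariate left 0 members past the threshold, other alternatives gave 16 to 20, and leaving out a pair gave 14 to 18. Leaving out a pair kept 0 in KO and 0 for KO minus WT. For single genes, 517 of 614 recomputed values stayed on the same side of the threshold and 97 lost the call. The cause was not tested. In the ligand experiment, signals below the highest nonspecific control limit what 5 members could show. In sorted T cells 8 of 37 members lay under the median gene, Oasl2 and Eif2ak2 among them. The filter on dim genes left these 2 out, so it could not check their calls.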
